A study of Homo sapiens with 16 samples.

Results

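The C/EBP transcription factors, taken here as CEBPA, CEBPB, CEBPD, CEBPE, CEBPG and CEBPZ, were picked by their symbols from a table of 25370 genes, in which all 6 members had a row. They were followed through 16 RNA-seq libraries of HMC3, an established human microglial cell line. The cells were starved of steroid and serum, first in medium with charcoal-stripped serum and then without serum, and were exposed for 24 h without serum or phenol red. The 8 conditions were vehicle, 0.1 nM estradiol (E2), ketamine, (2S,6S)-HNK or (2R,6R)-HNK at 400 nM each, and 0.1 nM E2 combined with each of these 3 drugs at 400 nM. HNK is hydroxynorketamine, a metabolite of ketamine, and its (2S,6S) and (2R,6R) forms are mirror images of each other. Every condition had 2 libraries, and nothing in the sources used here says that the 2 came from separate cultures, so p-values measure only the spread between these libraries, which may be technical. CEBPD was chosen because it stood among the genes that were highest relative to vehicle under (2R,6R)-HNK and E2+ketamine. Its differences that involve vehicle, (2R,6R)-HNK alone or E2+ketamine are therefore given as a description without a p-value, while the other members came in by family name and were tested.

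C/EBP proteins are basic leucine zipper factors that bind DNA as dimers, with each other or with related factors such as the ATF and AP-1 proteins. CEBPA drives myeloid and adipocyte differentiation and stops cell division, CEBPB and CEBPD are switched on by IL-6, STAT3 and other inflammatory signals and drive acute phase genes, and CEBPE acts late in granulocyte maturation. CEBPG has no strong activation domain and often works as a partner of ATF4, and CEBPZ carries the family name but is a nucleolar protein without the leucine zipper. In microglia CEBPB is best known as a driver of inflammatory genes.

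The libraries held 55300614 to 81646165 counts each. The common coefficient of variation between replicate libraries that edgeR estimated beyond counting error was 2.81%, so the whole spread of scarce genes was larger. Levels are counts per 1000000 (CPM) after TMM scaling, and a gene was called when edgeR's quasi-likelihood test gave a Benjamini-Hochberg adjusted p below 0.05 over the 16004 genes tested. A stricter call, named the fold limit below, also required a difference of 1 or more on the log2 scale, up or down. CEBPA, CEBPB, CEBPD, CEBPG and CEBPZ passed the filter on low counts and CEBPE did not. Of 12 microglial markers, CD68 and CD14 were among those with more than 1 CPM on average, while AIF1, CX3CR1, P2RY12, TMEM119, ITGAM, SPI1 and PTPRC reached at most 7 counts in any library. Of 10 fibroblast or mesenchymal markers, 9 were above 1 CPM, with a summed level of 22670 to 23290 CPM in the vehicle libraries. The label of microglia thus rested on few of its defining markers. Across the other conditions the mesenchymal sum ran from 21240 to 26480 CPM. The summed level of the 12 microglial markers was 109.3 to 112.7 CPM with vehicle and 74.1 to 108.8 CPM with treatment, and that of 6 astrocyte markers was 170.5 to 173.9 CPM and 91.1 to 160.9 CPM. The part of these shifts in the results below was not tested. In bulk RNA, fewer cells of a type and less RNA per cell cannot be told apart.

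The short stretches below show letters upstream of CEBPA and CEBPB, whose transcripts were GC-rich, and of CEBPG and CEBPZ, whose transcripts were AT-rich. The correction for GC content used below rests on the transcripts and not on these upstream stretches. They were read from GRCh37 in the direction of transcription, 5′ to 3′, within 250 bases before and 50 bases after the start of the canonical transcript, and the capitals mark the matched letters. The first is CEBPA, chr19:33793453-33793482, minus strand, with the TATA box TATAAA. The next are CEBPB, chr20:48807326-48807355, plus strand, with TATAAA, and CEBPB, chr20:48807298-48807327, plus strand, with TGACG, the core that CREB and ATF factors recognise. CEBPG, plus strand, held the CCAAT box in reverse at chr19:33864518-33864547 and at chr19:33864579-33864608. The second match, at bases -24 to -20 from the start of the canonical transcript, lies inside the gene as annotated, which starts at chr19:33864591. CEBPZ held TGACG at chr2:37458896-37458925, minus strand. This stretch lies inside NDUFAF7 as annotated, a gene on the plus strand that starts at chr2:37458774.
CEBPA TATA box: cggcctgccgggTATAAAagctgggccggc
CEBPB TATA box: acgggccgccctTATAAAtaaccgggctca
CEBPB CREB core: gaggggccggcgTGACGcagcggttgctac
CEBPG upstream CCAAT box: agcctgcccacgATTGGtcgactgggctgc
CEBPG downstream CCAAT box: gccggcgctcccATTGGccgggatggcggc
CEBPZ CREB core: cttcgaggggacTGACGcttacctgcgcgc

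Both strands were searched with overlaps allowed, over windows of the same length at 15125 tested genes. TATAAA was found in 6.01% of the windows, TGACG in 32.7% and CCAAT in 35% of them. A CCAAT match in the CEBPB window and a TGACG match in the CEBPD window are not printed above. The SP1 site GGGCGG lay in 71.3% of the windows, with 2 matches at CEBPA, 5 at CEBPB, 3 at CEBPD and none at CEBPE, CEBPG or CEBPZ. The C/EBP site TTGCNNAA, in which N stands for any base, lay in 6.49% of the windows and in none of the 6 members' windows. The STAT site TTCNNNGAA lay in 5.75% of them and, among the members, in the CEBPE window. These matches are a description of letters and not of binding. The members' windows held 57.7% GC at CEBPE, 62.7% at CEBPZ and 76.7% to 81% at the other members, against a median of 66% over all tested genes.

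CEBPA, CEBPB and CEBPD are genes of 1 exon, on chromosomes 19, 20 and 8, and their canonical transcripts had 65.9%, 66.2% and 66% GC. CEBPE on chromosome 14 has 2 exons and 64.7% GC. CEBPG lies at chr19:33864591-33873592 on the plus strand with 2 exons and 41.3% GC, and CEBPZ at chr2:37428755-37458739 on the minus strand with 16 exons and 39% GC. The first 4 were thus among the most GC-rich genes of the table, with 95.1% to 97.4% of tested genes lower in GC, while 20.4% were lower than CEBPG and 11.3% lower than CEBPZ. CEBPZ shared 351 bases of exon with CEBPZOS on the opposite strand and 408 with an unnamed gene there, CEBPB shared 231 bases with CEBPB-AS1, and CEBPA shared 659 and 482 bases with 2 unnamed genes on the opposite strand. The strand setting of the counting is not given in the sources used here, so reads from these overlaps cannot be assigned to either partner.

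The members differed widely in level. Per kilobase of transcript, CEBPB was the most abundant at 43.7 CPM on average over the 16 libraries, followed by CEBPD at 10.65, CEBPZ at 8.34 and CEBPG at 6.63 CPM per kilobase. CEBPA, the differentiation factor, was at 0.314 CPM per kilobase. CEBPE, the granulocyte factor, was at 0.017 CPM per kilobase. Its 22 counts came from 7 of the 16 libraries, with at most 6 counts in any one and only even numbers. Among all genes 65.8% of counts from 1 to 9 were even, against 49.9% of counts of 500 or more. Both vehicle libraries had 0 counts of CEBPE, which allows levels of up to 0.0487 and 0.0499 CPM by counting error alone. These limits would be higher if each fragment gave 2 counts, which was not tested. CEBPE was removed by the filter on low counts and entered no comparison between conditions.

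**Figure D1:**
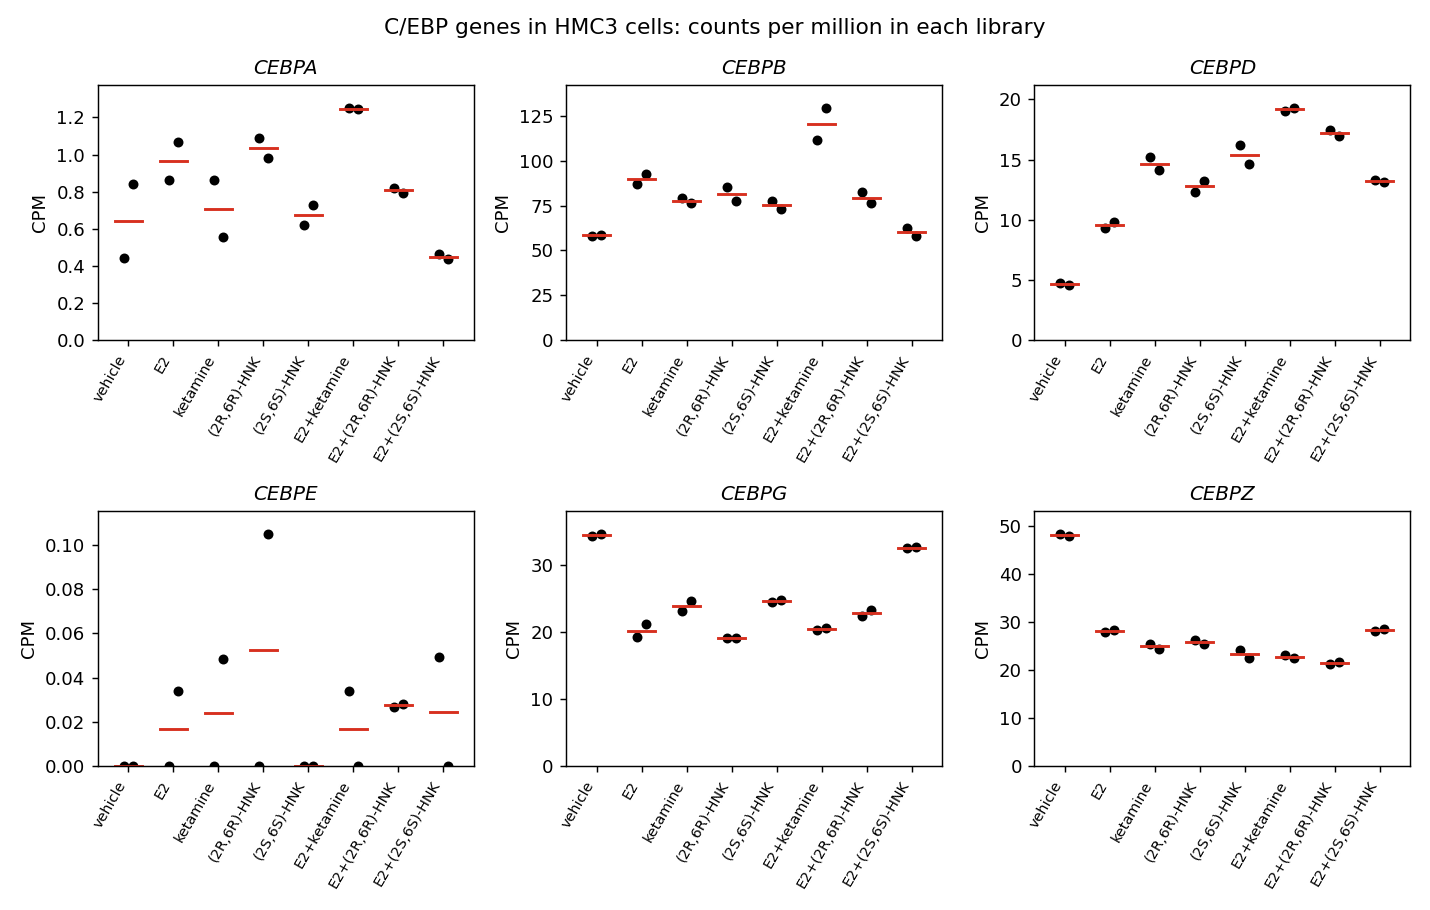
Level of each of the 6 C/EBP genes in CPM (vertical axis, linear and starting at 0) in the 8 conditions (horizontal axis), with a point for each library and a red line at the mean of 2. CEBPD was at 4.6 to 4.74 CPM with vehicle and 9.32 to 19.3 CPM with treatment, CEBPZ was at 48.1 to 48.4 CPM with vehicle and 21.2 to 28.6 CPM with treatment, and CEBPE did not exceed 0.105 CPM.

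The first question was how each treatment moved the family relative to vehicle, and in this comparison the members took opposite directions. CEBPD was above vehicle with all 7 treatments and CEBPZ below it. CEBPB was higher and CEBPG lower with 6 of the 7, except that CEBPB lay below vehicle with 5 of the 7, and CEBPG above it with E2+(2S,6S)-HNK, once the GC content and length of the genes were corrected for. Over the 4 tested members other than CEBPD and the 7 treatments, 21 of 28 tests passed, against 65.3% of all tests over the whole table. Of these, 8 were higher (30.3% of all tests) and 13 were lower (35.0% of all tests), and 4 of the 28 also passed the fold limit, against 6.66% of all tests. With the correction for GC content and length 3 of the 28 were called higher and 15 lower, and none passed that limit, against 3.15% of all tests. The share of members called was thus near that of the whole table, in which 62.5% of genes passed with E2, 59.3% with ketamine, 66.6% with (2R,6R)-HNK, 67.9% with (2S,6S)-HNK, 71.7% with E2+ketamine, 69.7% with E2+(2R,6R)-HNK and 59.7% with E2+(2S,6S)-HNK. All 7 comparisons share the 2 vehicle libraries.

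CEBPD, an inflammatory and IL-6-responsive factor, had the largest differences in the family. It was at 4.74 and 4.6 CPM in the vehicle libraries and at 9.32 and 9.84 CPM with E2. With ketamine it was at 15.2 and 14.1 CPM, with (2R,6R)-HNK at 12.3 and 13.2 CPM and with (2S,6S)-HNK at 16.2 and 14.6 CPM. With E2+ketamine it was at 19.05 and 19.3 CPM, with E2+(2R,6R)-HNK at 17.4 and 16.98 CPM and with E2+(2S,6S)-HNK at 13.3 and 13.1 CPM. Every treated library was therefore above both vehicle libraries. The order of the means ran from vehicle through E2, (2R,6R)-HNK, E2+(2S,6S)-HNK, ketamine, (2S,6S)-HNK and E2+(2R,6R)-HNK to E2+ketamine. In that order the libraries of E2+(2S,6S)-HNK and (2R,6R)-HNK overlapped, as did those of ketamine and (2S,6S)-HNK, and the other neighbours were apart.

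In log2 terms CEBPD was 1.04 ± 0.091 (SE, n = 2 libraries a condition) above vehicle with E2. It was 1.65 ± 0.084 above with ketamine, 1.45 ± 0.087 with (2R,6R)-HNK as well as 1.72 ± 0.086 with (2S,6S)-HNK. With E2 added to the drugs it was 2.04 ± 0.085 above with ketamine, 1.88 ± 0.084 with (2R,6R)-HNK as well as 1.5 ± 0.086 with (2S,6S)-HNK. These are 2.05-fold to 4.1-fold levels. With each library corrected for the GC content and length of the genes, CEBPD remained above vehicle in all 7 comparisons, by 0.55, 1.24, 0.83, 1.13, 1.2, 1.24 and 1.11 in the same order.

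CEBPB, the factor best known for inflammatory genes in microglia, differed less. It was at 57.98 and 58.7 CPM with vehicle, at 87.3 and 92.3 CPM with E2 and at 111.7 and 129.2 CPM with E2+ketamine. The 3 drugs without E2 gave 73.1 to 85.5 CPM, E2+(2R,6R)-HNK gave 82.6 and 76.2 CPM and E2+(2S,6S)-HNK gave 62.5 and 57.96 CPM. The libraries of E2+(2S,6S)-HNK thus overlapped those of vehicle, and all other treated libraries were above them. CEBPB passed the test as higher under 6 of the 7 treatments, with log2 fold changes of 0.62 ± 0.05 with E2, 0.41 ± 0.049 with ketamine, 0.48 ± 0.05 with (2R,6R)-HNK, 0.37 ± 0.05 with (2S,6S)-HNK, 1.05 ± 0.049 with E2+ketamine and 0.44 ± 0.049 with E2+(2R,6R)-HNK. The largest adjusted p among these 6 was 7.09e-09 by edgeR's quasi-likelihood test. With E2+(2S,6S)-HNK the log2 fold change was 0.047 (95% interval -0.054 to 0.149, adjusted p = 0.436 by edgeR), and it passed as higher when edgeR was fitted to the 2 groups alone (0.12) or with upper-quartile scaling (0.15). After correction for GC content and length CEBPB still passed as higher with E2 (0.12) and E2+ketamine (0.21) but was at -0.018 with ketamine. With that correction it passed as lower with (2R,6R)-HNK (-0.14), (2S,6S)-HNK (-0.23), E2+(2R,6R)-HNK (-0.23) and E2+(2S,6S)-HNK (-0.35).

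CEBPA, the differentiation factor, was scarce, with 27 to 84 counts a library. Its vehicle libraries were far apart at 0.441 and 0.839 CPM, so only large differences could be detected. The highest level was in E2+ketamine, at 1.25 and 1.245 CPM, and the lowest in E2+(2S,6S)-HNK, at 0.466 and 0.435 CPM. CEBPA passed as higher with E2+ketamine, by 0.96 ± 0.31 (adjusted p = 0.00491, edgeR), and with (2R,6R)-HNK, by 0.7 ± 0.31 (adjusted p = 0.0453, edgeR). The 5 other differences lay between -0.5 and 0.59 and did not pass. Without vehicle replicate 1 the E2+ketamine difference was 0.57 (adjusted p = 0.153, edgeR) and the (2R,6R)-HNK difference 0.31 (adjusted p = 0.481, edgeR), and neither passed. The (2R,6R)-HNK call was also lost without (2R,6R)-HNK replicate 1 (0.61), without (2R,6R)-HNK replicate 2 (0.77) and with DESeq2 (0.74, adjusted p = 0.069). With vehicle replicate 2 left out, E2 passed at 1.12, and with vehicle replicate 1 left out, E2+(2S,6S)-HNK passed as lower at -0.89. After the correction for GC content and length the differences were 0.15 with E2+ketamine and 0.088 with (2R,6R)-HNK, and neither passed, while E2+(2S,6S)-HNK passed as lower at -0.89 (adjusted p = 0.0234, edgeR).

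CEBPG, the partner of ATF4, was lower with most treatments. It was at 34.2 and 34.6 CPM with vehicle and at 32.5 and 32.55 CPM with E2+(2S,6S)-HNK. In the other 6 treatments all libraries lay between 19 and 24.65 CPM, below both of these groups. CEBPG fell by 0.77 with E2, by 0.53 with ketamine, by 0.85 with (2R,6R)-HNK, by 0.49 with (2S,6S)-HNK, by 0.75 with E2+ketamine and by 0.59 with E2+(2R,6R)-HNK on the log2 scale, each with an SE of at most 0.058 and a largest adjusted p of 1.39e-10 by edgeR. With E2+(2S,6S)-HNK the difference was -0.081 (95% interval -0.191 to 0.0286, adjusted p = 0.202 by edgeR). In the fit corrected for GC content and length CEBPG still passed as lower with E2 (-0.35), ketamine (-0.21) and (2R,6R)-HNK (-0.36). With that correction it was at -0.012 with (2S,6S)-HNK, -0.13 with E2+ketamine and -0.11 with E2+(2R,6R)-HNK, none of which passed, and at 0.17 with E2+(2S,6S)-HNK, where it passed as higher (adjusted p = 0.00556, edgeR).

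CEBPZ, the nucleolar member, was lower with every treatment. It was at 48.4 and 48.1 CPM with vehicle, at 27.9 and 28.4 CPM with E2 and at 28.2 and 28.6 CPM with E2+(2S,6S)-HNK. It was at 25.5 and 24.4 CPM with ketamine, 26.2 and 25.5 CPM with (2R,6R)-HNK and 24.2 and 22.6 CPM with (2S,6S)-HNK. E2+ketamine gave 23.1 and 22.55 CPM and E2+(2R,6R)-HNK 21.2 and 21.8 CPM. All treated libraries were below both vehicle libraries. On the log2 scale CEBPZ fell by 0.78 with E2, by 0.95 with ketamine, by 0.9 with (2R,6R)-HNK and by 1.04 with (2S,6S)-HNK. Combined with E2 it fell by 1.08 with ketamine, by 1.17 with (2R,6R)-HNK and by 0.76 with (2S,6S)-HNK, each of the 7 differences with an SE of at most 0.053 and a largest adjusted p of 3.32e-18 by edgeR. It remained lower and past the test in all 7 with the correction for GC content and length, at -0.27, -0.55, -0.32, -0.5, -0.37, -0.58 and -0.47 in the same order.

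CEBPZOS, which overlaps CEBPZ on the other strand, also fell in all 7 comparisons, by 0.19 to 0.77. Corrected for GC content and length, CEBPZOS passed as lower with E2 (-0.21) and as higher with E2+(2R,6R)-HNK (0.16), and the 5 other values lay between -0.021 and 0.13. CEBPA-AS1 did not pass in any of the 7 by edgeR, with log2 fold changes of -0.27 to 0.4. NDUFAF7, the neighbour of CEBPZ on the plus strand, was also lower in all 7, with log2 fold changes of -0.71 to -0.15. It passed in all but E2+(2S,6S)-HNK, and its corrected values are not given here.

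**Figure D2:**
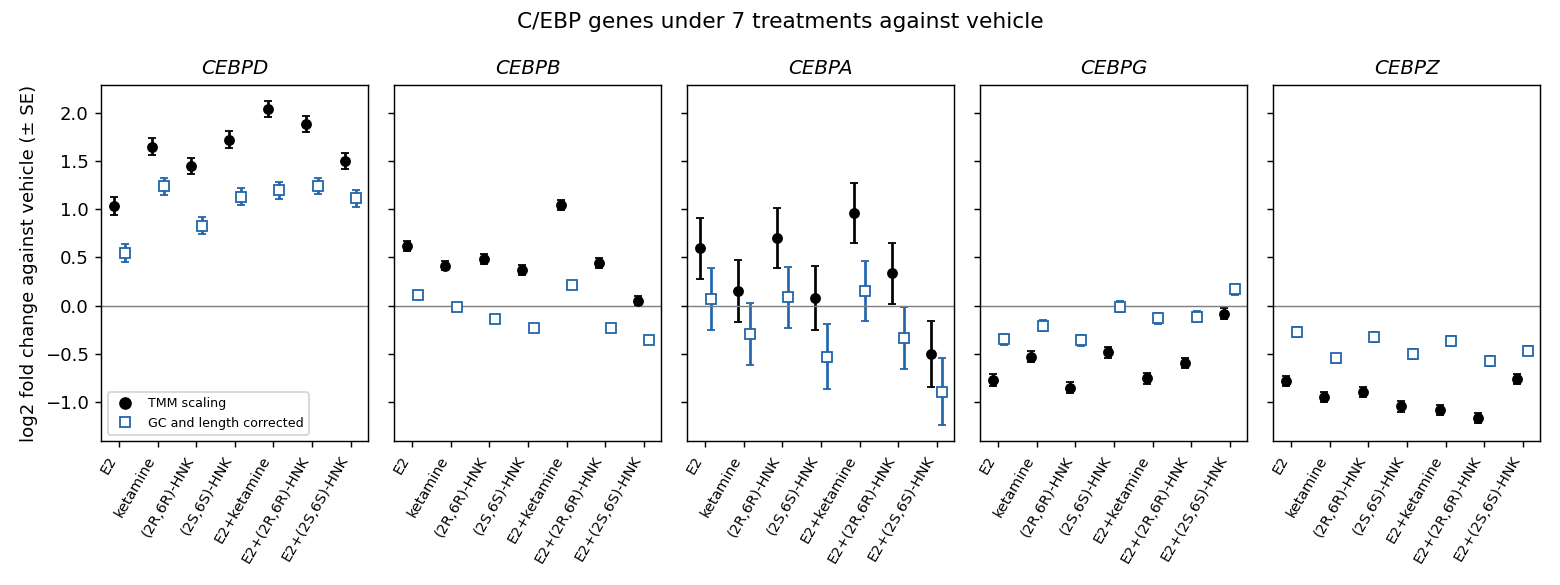
Log2 fold change against vehicle (vertical axis, with the standard error as a bar) of 5 C/EBP genes under the 7 treatments (horizontal axis). Filled black circles are from TMM-scaled counts and open blue squares from the fit corrected for GC content and length, with which CEBPD stayed above 0 and CEBPZ below 0 under all 7 treatments while CEBPB was below 0 under 5 of them.

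These values lay beside a trend over the whole table. In all 7 comparisons with vehicle the log2 fold change of a gene rose with the GC content of its transcript, with a Spearman correlation of 0.459 to 0.783 across 15125 genes, which share the libraries and are not independent replicates. The 797 genes of 64 to 68% GC, the band of CEBPA, CEBPB and CEBPD, had median log2 fold changes of 0.29 with E2+(2S,6S)-HNK to 0.774 with E2+ketamine. The 3042 genes of 38 to 43% GC, the band of CEBPG and CEBPZ, had medians of -0.305 with E2+(2S,6S)-HNK to -0.732 with E2+ketamine. CEBPD, which was chosen for its values against vehicle and is given here as a description, was above the upper quartile of its band in all 7 comparisons. CEBPZ was below the lower quartile of its band in all 7. CEBPB lay inside the middle part of its band, between the quartiles, in all comparisons but E2+ketamine, where its 1.05 was above the upper quartile of 0.963. CEBPA was below the lower quartile with ketamine (0.15 against 0.179), (2S,6S)-HNK (0.082 against 0.29) and E2+(2S,6S)-HNK (-0.5 against 0.00332), at the upper quartile with E2+ketamine (0.96) and inside the quartiles with the 3 other treatments. CEBPG was below the lower quartile of -0.672 with E2 and of -0.762 with (2R,6R)-HNK and inside the quartiles otherwise.

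**Figure D3:**
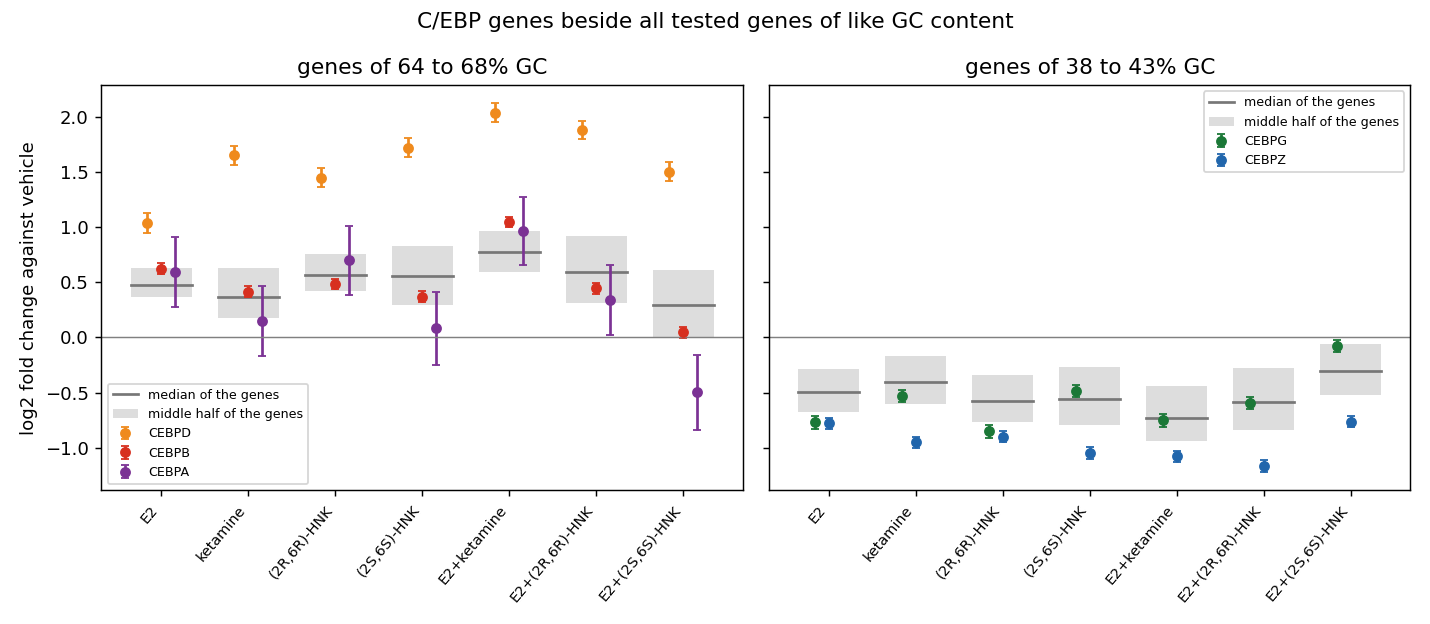
Log2 fold change against vehicle (vertical axis) of C/EBP genes, as points with standard errors, beside all tested genes of like GC content under the 7 treatments (horizontal axis), where the grey bar runs from the lower to the upper quartile and the line is the median. CEBPZ was below the bar of the 3042 AT-rich genes under all 7 treatments, and CEBPD, whose choice rested on such values, was above that of the 797 GC-rich genes.

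The next question was whether the compounds differed at the matched dose of 400 nM. The clearest separation was between E2+ketamine and E2+(2S,6S)-HNK, with CEBPB and CEBPA higher and CEBPG and CEBPZ lower in E2+ketamine, although CEBPZ turned to 0.095 and did not pass with the correction for GC content and length. Ketamine and (2S,6S)-HNK without E2 gave no call in the family from TMM-scaled counts, while CEBPB and CEBPG passed with that correction. Over 6 pairs and 4 members, 13 of 24 tests passed, 7 as higher and 6 as lower, against 51.3% of all tests over the table (25.3% higher and 26.0% lower), and with the correction 10 passed as higher and 5 as lower. By pair, 43.5% of all genes passed between the HNKs, 45.4% between ketamine and (2R,6R)-HNK and 46.1% between ketamine and (2S,6S)-HNK. With E2 these shares were 54.0%, 52.0% and 66.8%. The fold limit was passed by 1 of the 24, against 2.42% of all tests.

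Between the mirror images without E2, CEBPG was lower with (2R,6R)-HNK, at 19.1 and 19 CPM, than with (2S,6S)-HNK, at 24.5 and 24.65 CPM. The log2 difference was -0.37 ± 0.06 (adjusted p = 1.17e-06, edgeR) and -0.35 with the correction for GC content and length. CEBPZ was slightly higher with (2R,6R)-HNK, by 0.14 ± 0.056 (adjusted p = 0.0304, edgeR). That call was lost without (2R,6R)-HNK replicate 1 (0.12), without (2S,6S)-HNK replicate 2 (0.097) and with no filter on low counts. CEBPB differed by 0.11 (95% interval 0.0161 to 0.213) with an adjusted p of 0.0535 by edgeR. It passed in 9 of the 16 fits that left out a library, among them those without (2R,6R)-HNK replicate 2 (0.18) and without (2S,6S)-HNK replicate 1 (0.16), and also with the groups compared alone, no filter, halved counts or upper-quartile scaling. After correction for GC content and length CEBPZ (0.17) and CEBPB (0.096) both passed. CEBPA differed by 0.62 (95% interval -0.0113 to 1.24, adjusted p = 0.108 by edgeR), and CEBPD, without a test, was at -0.27 ± 0.075.

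With E2 the mirror images differed in all 5 members. E2+(2R,6R)-HNK had more CEBPD than E2+(2S,6S)-HNK, by 0.38 ± 0.072 (adjusted p = 1.015e-05, edgeR), and the libraries did not overlap at 16.98 to 17.4 against 13.1 to 13.3 CPM. CEBPB was higher by 0.4 ± 0.049 (adjusted p = 1.01e-09, edgeR) and CEBPA by 0.83 ± 0.32 (adjusted p = 0.0261, edgeR). CEBPG was lower in E2+(2R,6R)-HNK, at -0.51 ± 0.056 (adjusted p = 3.67e-11, edgeR), and so was CEBPZ, at -0.4 ± 0.054 (adjusted p = 9.18e-09, edgeR). The CEBPA call was lost when any of the 4 libraries compared was left out, with adjusted p-values up to 0.0969 by edgeR. In the fit corrected for GC content and length the differences in CEBPB (0.13) and CEBPG (-0.28) still passed, while those in CEBPD (0.13), CEBPA (0.56) and CEBPZ (-0.11) did not. In this pair the GC-rich band had a median difference of 0.314 and the AT-rich band of -0.275.

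Ketamine and (2S,6S)-HNK without E2 were close in every member. The difference, ketamine minus (2S,6S)-HNK, was -0.071 for CEBPD (95% interval -0.217 to 0.0744, adjusted p = 0.455 by edgeR). It was 0.045 for CEBPB (-0.0522 to 0.142), -0.043 for CEBPG (-0.159 to 0.0716), 0.094 for CEBPZ (-0.0161 to 0.204) and 0.071 for CEBPA (-0.567 to 0.709). The interval of CEBPA was the widest. Corrected for GC content and length, CEBPB (0.22) and CEBPG (-0.2) passed in this pair. Ketamine against (2R,6R)-HNK gave 1 call, CEBPG, which was higher with ketamine by 0.32 ± 0.058 (adjusted p = 5.58e-06, edgeR) and by 0.15 with the correction (adjusted p = 0.0309, edgeR). In the same pair CEBPB was at -0.069. It passed as lower without (2R,6R)-HNK replicate 2 (-0.14) or with the groups compared alone (-0.081) and as higher, at 0.12, with the correction for GC content and length. CEBPA was at -0.55 and passed, at -0.9, without ketamine replicate 1. CEBPZ was at -0.051 and passed as lower, at -0.22, with the correction, and CEBPD, without a test, was 0.2 ± 0.073 higher with ketamine and 0.41 higher with the correction.

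With E2 present, ketamine stood apart from (2S,6S)-HNK. CEBPA was higher by 1.46 ± 0.32 (2.75-fold, adjusted p = 6.42e-05, edgeR), the only difference between compounds to pass the fold limit among the 4 members. CEBPB was higher by 0.998 ± 0.048 (2-fold, adjusted p = 4.37e-24, edgeR). CEBPG was lower at -0.67 ± 0.057 and CEBPZ at -0.31 ± 0.055, and CEBPD was 0.54 ± 0.072 higher, without a test. After correction for GC content and length CEBPA (1.04), CEBPB (0.56) and CEBPG (-0.3) passed in the same direction, CEBPZ was at 0.095 and did not pass, and CEBPD was at 0.084. Against E2+(2R,6R)-HNK, E2+ketamine had more CEBPB, by 0.6 ± 0.047 (adjusted p = 1.29e-15, edgeR), and less CEBPG, at -0.16 ± 0.059 (adjusted p = 0.0217, edgeR). The latter call was lost without E2+ketamine replicate 1 (-0.14), without E2+(2R,6R)-HNK replicate 2 (-0.13), with DESeq2 (-0.13) and with the groups compared alone (-0.14), and the corrected value was -0.016. CEBPZ was at 0.088 and passed as higher, at 0.21, with the correction, and CEBPD, without a test, was at 0.15 ± 0.071 and at -0.045 with the correction. CEBPA was at 0.63 (95% interval 0.0363 to 1.22, adjusted p = 0.0698 by edgeR) and at 0.49 with the correction, and it passed with at least 10 counts, with halved counts and with the groups compared alone, at adjusted p-values of 0.0395 to 0.0474 by edgeR.

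A further question was what E2 added to each drug. With E2 present CEBPB was higher under ketamine and lower under (2S,6S)-HNK. CEBPG was lower under ketamine, a difference that turned to 0.079 with the correction for GC content and length, and higher under (2S,6S)-HNK. Over the 3 drugs, each compared with and without E2 and with and without the drug, 17 of 24 tests of the 4 members passed, 8 as higher and 9 as lower, against 52.1% of all tests over the table (25.5% higher and 26.6% lower). With E2 added, 57.5% of all genes passed under ketamine, 47.9% under (2R,6R)-HNK as well as 51.3% under (2S,6S)-HNK, and with the drug added to E2 50.3%, 50.5% and 55.1%. The fold limit was passed by 1 of the 24, against 2.19% of all tests, and by none with the correction, against 1.96%.

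With E2 added to ketamine, CEBPB went from 79.25 and 76.3 CPM to 111.7 and 129.2 CPM, a log2 difference of 0.63 ± 0.047 (adjusted p = 1.06e-16, edgeR). CEBPA rose by 0.81 ± 0.29 (adjusted p = 0.0155, edgeR), CEBPG was lower at -0.22 ± 0.058 (adjusted p = 0.000804, edgeR) and CEBPZ at -0.13 ± 0.055 (adjusted p = 0.041, edgeR). The CEBPA call was lost without either E2+ketamine library (0.81 in both fits) and without ketamine replicate 2 (0.53), and the CEBPZ call without either E2+ketamine library (-0.15 and -0.11), without ketamine replicate 1 (-0.096), with DESeq2 (-0.11), with the groups compared alone (-0.11) and with no filter (-0.13). CEBPD was 0.39 ± 0.071 higher with E2, without a test. After the correction for GC content and length CEBPB remained higher (0.23), CEBPA did not pass (0.45), CEBPG was at 0.079, CEBPZ passed as higher (0.18) and CEBPD was at -0.041.

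With E2 added to (2R,6R)-HNK, CEBPB stayed at -0.04 (95% interval -0.136 to 0.0567, adjusted p = 0.527 by edgeR). CEBPG rose by 0.26 ± 0.059 (adjusted p = 0.000246, edgeR) and CEBPZ was lower at -0.27 ± 0.055 (adjusted p = 5.27e-05, edgeR). Both also passed with the correction for GC content and length, at 0.25 and -0.25. CEBPA was at -0.36 (95% interval -0.955 to 0.233), and CEBPD, without a test, was 0.43 ± 0.072 higher.

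With E2 added to (2S,6S)-HNK, CEBPB fell by 0.32 ± 0.05 (adjusted p = 2.65e-07, edgeR), from 77.7 and 73.1 CPM to 62.5 and 57.96 CPM. CEBPG rose by 0.4 ± 0.057 (adjusted p = 3.29e-08, edgeR) and CEBPZ by 0.28 ± 0.055 (adjusted p = 2.19e-05, edgeR). CEBPD fell by 0.22 ± 0.074 (adjusted p = 0.0109, edgeR), a call that was lost without (2S,6S)-HNK replicate 1 (-0.14) and without E2+(2S,6S)-HNK replicate 2 (-0.21). In the fit corrected for GC content and length CEBPB (-0.12) and CEBPG (0.18) still passed, and CEBPZ (0.031) and CEBPD (-0.017) did not. CEBPA was at -0.58 (95% interval -1.27 to 0.108).

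Seen from E2 alone, adding (2R,6R)-HNK or (2S,6S)-HNK raised CEBPD. The rise was 0.85 ± 0.076 with (2R,6R)-HNK (1.8-fold, adjusted p = 1.31e-13, edgeR) as well as 0.47 ± 0.077 with (2S,6S)-HNK (1.38-fold, adjusted p = 1.06e-06, edgeR). Both also passed with the correction for GC content and length, at 0.69 and 0.56. These 2 contrasts use none of the libraries that chose CEBPD. CEBPD with E2+ketamine was 1 ± 0.076 above E2 alone, and 0.65 with the correction.

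The other members moved away from E2 alone in different ways. CEBPB rose with ketamine (0.42 ± 0.047), fell with (2R,6R)-HNK (-0.18 ± 0.048) and fell with (2S,6S)-HNK (-0.57 ± 0.049), with a largest adjusted p of 0.00164 by edgeR. CEBPG rose with (2R,6R)-HNK (0.18 ± 0.059, adjusted p = 0.0111, edgeR) as well as with (2S,6S)-HNK (0.69 ± 0.057, adjusted p = 8.09e-15, edgeR) and was at 0.017 (95% interval -0.105 to 0.139) with ketamine. CEBPZ fell with ketamine (-0.3 ± 0.056) and (2R,6R)-HNK (-0.39 ± 0.055) and was at 0.015 (95% interval -0.0928 to 0.122) with (2S,6S)-HNK, where it passed as lower, at -0.19, after the correction for GC content and length. CEBPA fell with (2S,6S)-HNK by 1.09 ± 0.32 (adjusted p = 0.00358, edgeR), past the fold limit. Corrected for GC content and length, CEBPB passed at 0.097, -0.34 and -0.47 with the 3 drugs in that order, CEBPG at 0.22, 0.23 and 0.52, and CEBPA at -0.96 with (2S,6S)-HNK, while CEBPZ with ketamine (-0.097) did not pass. The call for CEBPB with (2R,6R)-HNK was lost without E2 replicate 2 (-0.13) and without E2+(2R,6R)-HNK replicate 2 (-0.12). The call for CEBPG with (2R,6R)-HNK was lost without E2 replicate 1 (0.11) and without E2+(2R,6R)-HNK replicate 2 (0.14).

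Whether a drug acted differently with and without E2 was tested as an interaction, the difference of E2+drug from E2 minus the difference of drug from vehicle. Over 3 drugs and 4 members, 9 of 12 tests passed, 6 as higher and 3 as lower, against 53.1% of all tests over the table (29.6% higher and 23.5% lower). By drug, 37.5% of all genes passed with ketamine, 56.6% with (2R,6R)-HNK as well as 65.1% with (2S,6S)-HNK. The fold limit was passed by 4 of 12, against 6.07% of all tests, and with the correction for GC content and length by none of the 12, against 2.16%. The 3 interactions share the vehicle and E2 libraries.

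CEBPG had positive interactions with all 3 drugs, of 0.55 ± 0.082 with ketamine, 1.03 ± 0.082 with (2R,6R)-HNK as well as 1.17 ± 0.081 with (2S,6S)-HNK (largest adjusted p = 3.33e-07, edgeR). CEBPZ had interactions of 0.65 ± 0.076, 0.51 ± 0.076 and 1.06 ± 0.076 in the same order (largest adjusted p = 7.39e-08, edgeR). CEBPB had none detectable with ketamine, at 0.0096 (95% interval -0.128 to 0.147), but negative ones with (2R,6R)-HNK, at -0.66 ± 0.069 (adjusted p = 9.14e-12, edgeR), and with (2S,6S)-HNK, at -0.94 ± 0.07 (adjusted p = 7.02e-17, edgeR). CEBPA had an interaction of -1.17 ± 0.47 with (2S,6S)-HNK (adjusted p = 0.0247, edgeR), and those with ketamine (0.22) and (2R,6R)-HNK (-0.96, adjusted p = 0.0566 by edgeR) did not pass. The latter passed with no filter, at least 10 counts, halved counts or upper-quartile scaling, without E2 replicate 1 (-1.1) and without vehicle replicate 2 (-1.49), with adjusted p-values of 0.00899 to 0.0459 by edgeR. CEBPD, without a test, was at -0.65 ± 0.12, -0.6 ± 0.12 and -1.26 ± 0.12, and at -0.59, -0.14 and -0.57 with the correction for GC content and length.

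After correction for GC content and length the interactions of CEBPG stayed past the test at 0.43, 0.59 and 0.53, those of CEBPB at -0.2 with (2R,6R)-HNK as well as -0.23 with (2S,6S)-HNK, and those of CEBPZ at 0.45 with ketamine and 0.3 with (2S,6S)-HNK. CEBPZ with (2R,6R)-HNK (0.021) and CEBPA with (2S,6S)-HNK (-0.44) did not pass. The GC-rich band had median interactions of -0.0748, -0.454 and -0.748 with the 3 drugs and the AT-rich band of 0.181, 0.489 and 0.744. The CEBPA interaction with (2S,6S)-HNK ranged from -1.7 to -0.78 when libraries were left out in turn, and the call was lost without (2S,6S)-HNK replicate 2 (-1.05), E2 replicate 2 (-1.02), E2+(2S,6S)-HNK replicate 2 (-1.13) or vehicle replicate 1 (-0.78, adjusted p = 0.163 by edgeR).

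**Figure D4:**
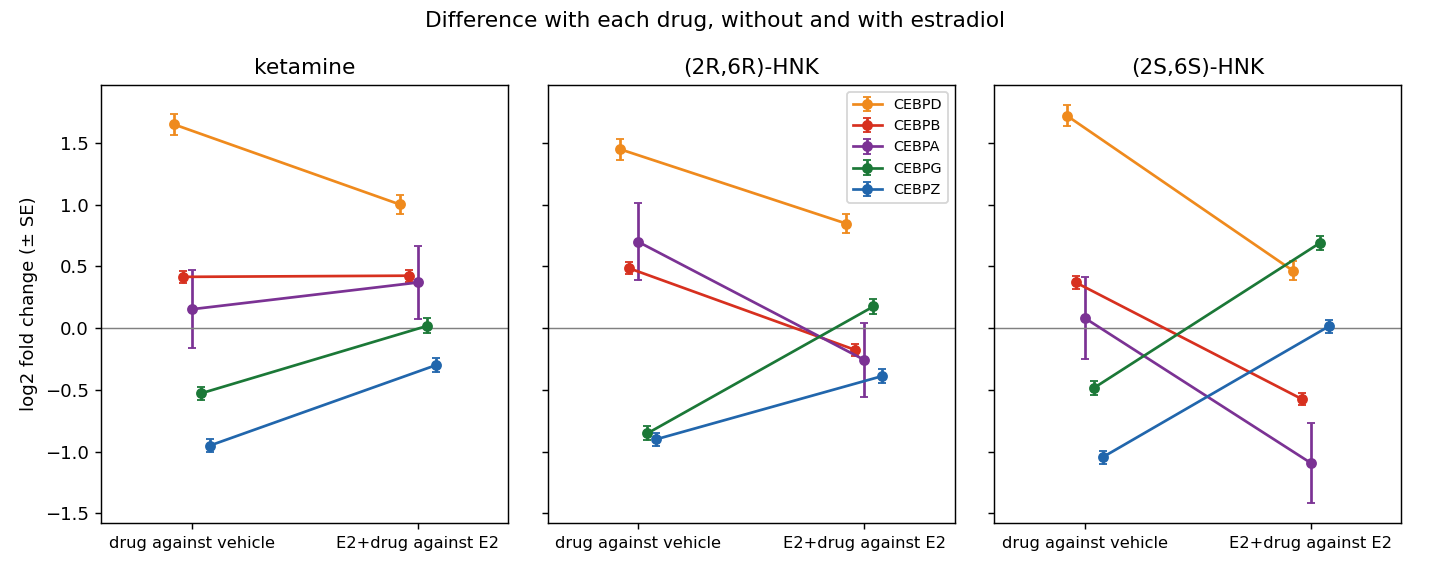
Log2 fold change (vertical axis, with the standard error as a bar) of 5 C/EBP genes for each drug against vehicle and for E2+drug against E2 (horizontal axis), with a line joining the 2 values of a gene. CEBPG went from -0.49 to 0.69 and CEBPB from 0.37 to -0.57 with (2S,6S)-HNK, while CEBPB was at 0.41 and 0.42 with ketamine. Corrected for GC content and length, which is not plotted here, these pairs were -0.012 and 0.52, -0.23 and -0.47, with no change of sign, and -0.018 and 0.097.

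Genes that work with the family were described from lists drawn up with earlier results of these data known, and their counts are given beside those of all tests against vehicle, of which 6.66% passed the fold limit, 3.65% as higher and 3.01% as lower. With the correction for GC content and length 3.15% of all these tests passed it. Of leucine zipper partners, 18 of 19 could be tested, and 13 of 126 tests passed the fold limit (10.3%), all as higher, and 7 with the correction. Their median log2 fold change ran from -0.11 to 0.3 over the treatments, against -0.064 to -0.0027 for all tested genes. FOS, a subunit of AP-1, rose in all 7 comparisons and most with E2+(2R,6R)-HNK, from 1.12 ± 0.38 to 3.61 CPM (SD, n = 2), a log2 fold change of 1.69 ± 0.19 (adjusted p = 3.4e-11, edgeR) and of 1.47 with the correction for GC content and length. TEF, a leucine zipper factor of the PAR group, reached 30.9 CPM with E2+(2R,6R)-HNK from 12.2 CPM (1.34 ± 0.067), and its relative DBP went from 1.22 to 2.94 CPM (1.27 ± 0.18), with corrected values of 0.94 and 0.63. JUND rose most with E2+ketamine, from 47.45 to 99 CPM, by 1.06 ± 0.054, and by 0.14 with the correction. Its largest corrected values were with E2 (0.18) and ketamine (0.17), and it did not pass with (2R,6R)-HNK (-0.011).

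DDIT3, also called CHOP, which pairs with C/EBP proteins and keeps them from their usual sites, fell in all 7 comparisons. Its log2 fold changes lay between -0.66 and -0.19 and, with the correction for GC content and length, between -0.68 and -0.26, all past the test by edgeR. ATF4, the stress factor that pairs with CEBPG, rose by 0.22 ± 0.024 with (2R,6R)-HNK and by 0.24 ± 0.024 with E2+ketamine and fell by 0.075 ± 0.024 with E2+(2S,6S)-HNK. The 4 other differences lay between -0.036 and 0.041 and did not pass. With the correction for GC content and length ATF4 passed as lower in 6 of the 7 comparisons, at -0.055 with E2+ketamine to -0.25 with (2S,6S)-HNK, and was at -0.012 with (2R,6R)-HNK, which did not pass.

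Of 27 regulators of C/EBP genes and proteins, all tested, 9 of 189 tests passed the fold limit (4.76%), all as lower, and 5 with the correction, and the medians ran from -0.36 to -0.11. STAT3, which switches on CEBPB and CEBPD, rose in all 7 comparisons, by 0.17 with (2R,6R)-HNK to 0.55 ± 0.029 with E2+(2R,6R)-HNK, and by 0.14 to 0.49 with the correction for GC content and length. It was at 133.4 ± 0.25 CPM (SD, n = 2) with vehicle and at 195.4 ± 4.3 CPM with E2+(2R,6R)-HNK. IL6 was scarce at 1.01 CPM with vehicle. It fell with E2+(2R,6R)-HNK to 0.316 CPM (-1.68 ± 0.33, adjusted p = 1.21e-05, edgeR), with (2S,6S)-HNK (-0.85) and with E2+(2S,6S)-HNK (-0.95), and rose with E2+ketamine (0.66). With the correction IL6 passed in 3 of these 4, at -1.23, -0.74 and 1.16, and not with (2S,6S)-HNK (-0.43).

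Among the other regulators TLR4, the endotoxin receptor, fell most with (2S,6S)-HNK, from 2.79 to 1.21 CPM (-1.2 ± 0.22, and -0.6 with the correction). TLR4 did not pass with ketamine. In the corrected fit it passed, as lower, only with (2S,6S)-HNK and with E2+(2R,6R)-HNK (-0.56). LIFR, a receptor subunit for the IL-6 family, fell most with E2+ketamine (-1.15 ± 0.069, and -0.28 with the correction). In the corrected fit LIFR passed as higher with E2+(2S,6S)-HNK (0.15) and did not pass with E2, ketamine or E2+(2R,6R)-HNK. TRIB1, which targets CEBPA for degradation, fell by 1.14 ± 0.082 with E2+(2R,6R)-HNK and by 1.34 with the correction, and was at 0.032 with E2.

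Of 31 acute phase and inflammatory targets 15 could be tested, and 7 of 105 tests passed the fold limit (6.67%), 3 as higher and 4 as lower, with medians of -0.36 to 0.51. IL6, which stands in both this list and that of the regulators, was among the lower ones. Without vehicle replicate 1 that count was 16 and without vehicle replicate 2 it was 3. No gene of this list met the rule of size and level for named genes, and IL6 is named as a fixed choice. Of 21 adipocyte and metabolic targets 15 could be tested, and 6 of 105 tests passed (5.71%), all as higher, and 1 with the correction, with uncorrected medians of 0.05 to 0.34. SLC2A4, the insulin-responsive glucose transporter, rose by 1.33 ± 0.19 with E2+(2R,6R)-HNK, from 1.135 to 2.85 CPM, and KLF15, a factor of adipocytes, by 1.1 ± 0.24, from 0.869 to 1.87 CPM. In the fit corrected for GC content and length these were 0.93 and 0.59. KLF15 did not pass with E2, ketamine or (2R,6R)-HNK without the correction, and with it passed as lower with ketamine (-0.72).

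Of 15 myeloid targets 7 could be tested, and 8 of 49 tests passed the fold limit (16.3%), all as higher, and 3 with the correction, with uncorrected medians of 0.2 to 0.6. CD14, the co-receptor for endotoxin, rose most with ketamine, from 1.63 to 3.66 CPM, by 1.16 ± 0.18 (adjusted p = 2.83e-07, edgeR), and by 0.85 with the correction. It did not pass with (2S,6S)-HNK or E2+(2S,6S)-HNK. In the corrected fit CD14 passed only with ketamine, and its other values lay between -0.073 and 0.33. Without vehicle replicate 2 the list's count was 4. CD14 is also one of the microglial markers, whose summed level was 109.3 to 112.7 CPM with vehicle and 74.1 to 77.7 CPM with (2R,6R)-HNK.

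The list of growth arrest genes, 13 in all, also held drivers of cell division, so its higher and lower calls have no single meaning. Of the 13 genes 11 could be tested. The fold limit was passed by 14 of 77 tests (18.2%), 10 as higher and 4 as lower, and by 3 with the correction. Uncorrected medians ran from -0.11 to 0.46. CDKN1A, the p21 inhibitor of the cell cycle, rose in all 7 comparisons, by 0.66 with E2+(2S,6S)-HNK to 1.24 ± 0.029 with E2+ketamine, and by 0.37 to 0.72 with the correction for GC content and length. CDKN1C, the p57 inhibitor, split the treatments. It was at 40.8 CPM with vehicle and rose to 98.8 CPM with E2+ketamine (1.28 ± 0.046) and with E2, ketamine and (2R,6R)-HNK, and fell to 27.5 CPM with E2+(2S,6S)-HNK (-0.56 ± 0.05) and with (2S,6S)-HNK and E2+(2R,6R)-HNK. With the correction CDKN1C kept both directions except with (2R,6R)-HNK, where it did not pass (0.095). Its corrected rises were 0.54 with E2+ketamine, 0.67 with ketamine and 0.28 with E2. The falls became larger, at -0.98 with (2S,6S)-HNK, -1.05 with E2+(2R,6R)-HNK and -0.88 with E2+(2S,6S)-HNK, against -0.44, -0.47 and -0.56 uncorrected. GAS1, a growth arrest protein, rose in all 7 comparisons and most with E2+ketamine (1.29 ± 0.11, and 0.69 with the correction, with which E2 and (2R,6R)-HNK did not pass). Its largest corrected values were with E2+(2S,6S)-HNK and ketamine, at 0.84 in both. SNAI2, a transcriptional repressor, fell most with E2+(2S,6S)-HNK (-1.2 ± 0.1, and -0.95 with the correction). In the corrected fit SNAI2 passed as higher with (2R,6R)-HNK (0.37) and did not pass with E2, ketamine or E2+ketamine.

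Members differed in how they tracked each other over the 16 libraries, which share the same conditions and scaling. CEBPD and CEBPZ ran opposite ways, with a Pearson correlation of log2 CPM of -0.96, as did CEBPB and CEBPG at -0.812. In both pairs a gene with a GC-rich transcript stands against one with an AT-rich transcript. Over the whole table fold changes against vehicle rose with GC content, and the part of that trend in these correlations was not tested. CEBPA followed CEBPB at 0.814, and CEBPB followed CEBPD at 0.58. Among 10374 genes with a mean of at least 5 CPM, the 5 whose log2 CPM ran most like CEBPD were C1R (0.983), FDXR, C19orf66, APOE and AIF1L (0.973). C1R is a complement protease and APOE the lipid carrier. The 5 most like CEBPB were C4orf48 (0.979), FLT4, PLEKHG3, RBPMS and SLC9A8 (0.971). Correlations above 0.9 were reached by 2.68% of the genes for CEBPD and by 3.85% for CEBPB. All correlations given here are descriptions over libraries of 8 conditions, from values without the correction for GC content and length.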

How the data were processed

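RNA-seq of 16 HMC3 libraries, 2 for each of 8 conditions, was analysed from raw counts per gene that the authors deposited in a single table. Per the study's methods, libraries were made with the Ovation RNA-seq v2 kit, reads were aligned to hg19 with TopHat and Bowtie, and genes were counted. The submitters' processing notes name TopHat2 2.0.14, Bowtie2 2.2.6 and featureCounts 1.4.6, and the methods give other versions of the aligners. Groups came from the sample labels. The members and gene lists were chosen with earlier results of these data known.

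Counts were analysed in R 4.3.3 with edgeR 4.0.16 (TMM scaling, filterByExpr, quasi-likelihood test) in a single fit of all 8 conditions, with Benjamini-Hochberg adjustment over 16004 genes in each comparison and a threshold of 0.05, with or without a log2 limit of 1. CPM values are counts per 1000000 of the TMM-scaled library size, and log2 CPM used a prior count of 2. Limits on counts of 0 used 3 counts and cover counting error only. The correction fitted each library's log2 CPM, with each gene centred over the libraries, by GC content first and length second (loess, span 0.5) and entered the edgeR fit as offsets. It could be made for 94.5% of the tested genes. Alternatives were DESeq2 1.42.0, upper-quartile scaling, the groups compared alone, no filter, at least 10 counts in every library, halved counts, a replicate block, and each library left out in turn. The procedure was tested on simulated data. From each gene list up to 4 genes with the largest change past the log2 limit, a mean of at least 1 CPM and both treated libraries on the same side of both vehicle libraries were named, and STAT3, IL6, DDIT3 and ATF4 in any case. Transcript GC content, promoters and coordinates came from GRCh37 with its annotation. The protein products, the sequence of CEBPD and some genes of the lists are not reported here.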

Additional observations from a re-analysis of the deposited data

Results flagged for a closer look

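A drug's difference depended on E2 in 9 of 12 tests of the members by edgeR's quasi-likelihood interaction term, against 53.1% of all such tests over the table. With ketamine the interaction was 0.546 for CEBPG and 0.651 for CEBPZ. With (2R,6R)-HNK it was -0.661 for CEBPB, 1.03 for CEBPG and 0.512 for CEBPZ. With (2S,6S)-HNK it was -1.17 for CEBPA, -0.944 for CEBPB, 1.17 for CEBPG and 1.06 for CEBPZ. The values for CEBPZ with (2R,6R)-HNK and for CEBPA with (2S,6S)-HNK did not pass with the correction for GC content and length, at 0.021 and -0.44. The 7 others passed with it at smaller values. CEBPG was at 0.43 under ketamine, 0.53 under (2S,6S)-HNK and 0.59 under (2R,6R)-HNK. CEBPZ was at 0.45 under ketamine and 0.3 under (2S,6S)-HNK, and CEBPB was at -0.23 under (2S,6S)-HNK and -0.2 under (2R,6R)-HNK.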

How the results depend on the processing

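Of 110 member differences, 107 were unchanged with DESeq2, 104 with the compared groups alone, 106 with no filter and 108 with at least 10 counts. The number was 106 with upper-quartile scaling, 107 with halved counts and 63 with the correction for GC content and length. Unchanged means that a tested difference kept its direction and its side of the threshold, or passed in neither fit, whatever its sign. Untested CEBPD differences that kept their direction but moved in size are left out, 12 with the correction and 1 with upper-quartile scaling. Upper-quartile scaling shifted the median of all genes by up to 0.105. The counts of calls over the 4 members were 20 to 22 against vehicle, 12 to 15 between compounds, 15 to 17 with E2 added and 8 to 10 for the interaction when each library was left out, and 18, 15, 15 and 7 with the correction, with which 50%, 42.6%, 42.3% and 39.1% of all tests passed. Replicate numbers did not pair the libraries (correlations -0.0258 to 0.0451 over 28 pairs of conditions), and a replicate block left these counts at 21, 13, 17 and 9.

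The correction reversed 13 differences that passed with or without it, or that had no test. They are given here without and with the replicate block, and the cause was not tested. CEBPB against vehicle was at -0.018 and -0.019 with ketamine, -0.235 and -0.235 with (2S,6S)-HNK, -0.139 and -0.139 with (2R,6R)-HNK, -0.226 and -0.227 with E2+(2R,6R)-HNK and -0.352 and -0.352 with E2+(2S,6S)-HNK, where CEBPG was at 0.169 and 0.170. CEBPB was at 0.120 and 0.120 for ketamine minus (2R,6R)-HNK. CEBPD was at -0.0454 and -0.0453 for E2+ketamine minus E2+(2R,6R)-HNK and CEBPZ at 0.0952 and 0.0954 for E2+ketamine minus E2+(2S,6S)-HNK. For E2+ketamine minus ketamine CEBPG was at 0.0793 and 0.0795, CEBPZ at 0.175 and 0.175 and CEBPD at -0.0414 and -0.0413. CEBPZ was at -0.193 and -0.193 for E2+(2S,6S)-HNK minus E2. Differences that passed in neither fit also changed sign. Among them CEBPA against vehicle went from 0.15 to -0.3 with ketamine, 0.082 to -0.53 with (2S,6S)-HNK and 0.34 to -0.34 with E2+(2R,6R)-HNK. For ketamine minus (2S,6S)-HNK, CEBPZ went from 0.094 to -0.049 and CEBPD from -0.071 to 0.11.

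Counts past the fold limit moved in the lists. Leucine zipper partners went from 13 to 20 with upper-quartile scaling and to 7 with the correction, with or without the block. Regulators went to 5, adipocyte targets to 1 and growth arrest genes to 3 with the correction, with or without the block. Acute phase targets went to 4 with DESeq2, to 1 with at least 10 counts, and to 3 to 16 when libraries were left out. Myeloid targets went to 5 with the compared groups alone and with at least 10 counts, to 3 with the correction, to 4 with the correction and block, to 4 with halved counts, and to 4 to 9 when libraries were left out. Of the 5 genes most like a member, 1 was shared by rank correlation and 3 over condition means for CEBPD, and 2 and 3 for CEBPB. Depth limits CEBPA, with 27 to 84 counts a library, and CEBPE.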
